A study of Mus musculus with 11 samples.

Results

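The 45 genes described here act in G2 phase and mitosis, and they were taken as a list of symbols matched to the gene names of the deposited count tables. All 45 were present, of 24411 symbols. The list was sorted by role into cyclins, kinases and transcription factors of mitotic entry (11 genes), Aurora kinases and the chromosomal passenger complex (6), the spindle checkpoint and the anaphase-promoting complex (7), centromere and kinetochore (5), chromosome structure (2), spindle motors and microtubule proteins (8), and central spindle and cytokinesis (6). RNA-seq of 11 mouse libraries was available: neurospheres from wild-type mice (n = 3) and from mice labelled Bmal1-/- (n = 3), and corpus callosum from wild-type mice (n = 3) and from mice labelled Bmal1-/- (n = 2). Donors were 8 to 10 weeks old. Neurospheres are suspended spheres of dividing stem and progenitor cells of the brain, here grown for 1 week from mechanically dissociated subventricular zone in medium with 2 ug/ml heparin and 20 ng/ml EGF. The corpus callosum is the myelinated tract that joins the hemispheres, and it was taken by dissection. No label names a demyelinating treatment, a strain, a sex or the allele behind Bmal1-/-. Nor do the labels tie libraries to separate animals or cultures, so the p-values below reflect library-to-library spread, part or all of which could be technical.

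Entry into mitosis is driven by cyclin B bound to the kinase CDK1, which CDC25 phosphatases activate and Polo and Aurora kinases assist. Chromosomes then attach through kinetochores to a spindle built by motor proteins, the checkpoint proteins hold the anaphase-promoting complex until attachment is complete, and the central spindle and contractile ring divide the cell. Transcription of these genes is low in resting and G1 cells and peaks in G2 and M, through the DREAM repressor complex and the B-MYB, MuvB and FOXM1 activators. Those complexes act at a promoter element called the cell cycle genes homology region (CHR), often beside CCAAT boxes bound by NF-Y.

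Because all members were lower in the callosum than in neurospheres (below), their promoters were searched for these elements. RefSeq promoter windows of 300 bases (250 before to 50 after the annotated start, GRCm38.p6) were available for 36 of the 45 members. The 5 windows below show the strand of the gene from 120 bases before to 30 after the start. Capitals mark the CHR (TTTGAA), its variant TTCGAA or the NF-Y box (CCAAT), on either strand, and a match on the opposite strand reads TTCAAA or ATTGG. Ccnb2 and Cdk1 are shown as entry genes that were far lower in the callosum, Mki67 as the member with the highest CPM in wild-type neurospheres, and Cdc25b and Anln as members that differed least between the sources.
Ccnb2 (chr9:70421525-70421674, minus strand): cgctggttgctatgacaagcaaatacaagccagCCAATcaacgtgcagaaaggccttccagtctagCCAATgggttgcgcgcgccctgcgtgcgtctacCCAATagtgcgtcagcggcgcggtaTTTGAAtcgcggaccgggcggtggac
Cdk1 (chr10:69352883-69353032, minus strand): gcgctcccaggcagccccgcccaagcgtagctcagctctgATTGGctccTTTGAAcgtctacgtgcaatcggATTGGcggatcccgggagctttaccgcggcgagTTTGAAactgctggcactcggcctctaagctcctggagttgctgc
Mki67 (chr7:135716350-135716499, minus strand): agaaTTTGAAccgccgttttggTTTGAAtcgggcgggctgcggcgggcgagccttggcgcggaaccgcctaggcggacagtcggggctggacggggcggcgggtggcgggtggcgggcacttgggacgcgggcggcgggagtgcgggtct
Cdc25b (chr2:131186828-131186977, plus strand): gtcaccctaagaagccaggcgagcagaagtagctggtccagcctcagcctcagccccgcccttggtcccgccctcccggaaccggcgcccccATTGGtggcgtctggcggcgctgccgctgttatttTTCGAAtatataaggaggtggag
Anln (chr9:22389177-22389326, minus strand): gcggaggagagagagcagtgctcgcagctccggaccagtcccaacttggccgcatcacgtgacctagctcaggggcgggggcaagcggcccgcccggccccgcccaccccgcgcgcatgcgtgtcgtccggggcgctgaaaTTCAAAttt

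A gene with more than 1 window was counted once, if any of its windows held a match. The CHR was found in 26 of the 36 members (72.2%), against 20.2% of 27025 genes, 3 of 29 S phase genes (10.3%) and 33 of 54 other mitotic genes (61.1%). The NF-Y box was in 28 of 36 (77.8%), against 41.1% of all genes. Both together were in 23 of 36 (63.9%), against 7.97% of all genes. The variant TTCGAA was in 4 of 36 (11.1%; 1.80% of all genes), among them Cdc25b. The E-box CACGTG, the element that BMAL1 and CLOCK bind, was in 2 of 36 (5.56%; 8.09% of all genes), Anln and Ttk. Of the 35 CHR matches in member windows, 27 (77.1%) began in the last 80 bases, from 30 bases before the start onwards, where 19.3% of the matches over all genes lay. Matches were counted per window, so the sites of Prc1 and Ect2, which have 2 overlapping windows each, count in both. In the windows printed above, the CHR of Ccnb2 began at base 5 after the start, and those of Cdk1 began 71 and 15 bases before it. These are matches to letters, not binding sites.

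**Figure D1:**
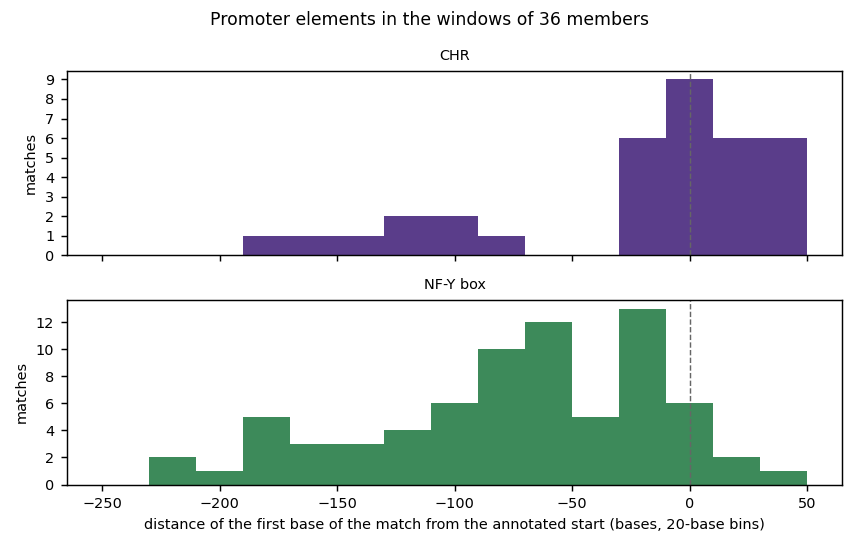
Positions of CHR matches (upper) and NF-Y boxes (lower) in the 300-base promoter windows of 36 members (2 overlapping windows for Prc1 and Ect2, each counted); the horizontal axis is the distance from the annotated start in bases and the vertical axis the number of matches per 20-base bin. 27 of 35 CHR matches lie from 30 bases before the start onwards, and NF-Y boxes lie mostly before it.

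Gene counts summed to 17450270 to 19717848 per library. Arntl, the gene for BMAL1, stood at 38.2, 49.4 and 45.8 CPM (counts relative to the library total, with TMM factors of all 11 libraries) in wild-type neurospheres and at 40.5, 42.8 and 48.9 CPM in those labelled Bmal1-/-, and at 39.3, 35.8 and 32.5 against 32.3 and 40.3 CPM in the callosum. Counts per whole gene cannot show the loss of part of it, so this level does not check the labels. Nr1d2, a clock gene driven by BMAL1, did not overlap between the genotypes in either source (60.4 to 64.7 against 2.97 to 4.24 CPM in neurospheres, 11.9 to 12.1 against 1.19 and 2.21 CPM in the callosum). The progenitor marker Nes ranged from 457 to 909 CPM in neurospheres and from 16.0 to 26.7 CPM in callosum, and the myelin gene Mbp from 438 to 821 and from 16617 to 26062 CPM. The neuronal gene Rbfox3 was at 759 to 964 CPM in the callosum, so that tissue held neuronal RNA too. The library Bmal1-/- neurosphere 1 stood apart from the rest: 22.6% of its reads were unmapped, against 13.7% to 16.2% in the other neurosphere libraries, and its long transcripts were low. Results that rest on it are given with and without it.

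Mitotic transcripts made up 0.389% to 0.506% of gene counts in neurospheres and 0.0114% to 0.0184% in the callosum. In bulk RNA, fewer dividing cells and less RNA per dividing cell cannot be told apart. In wild-type neurospheres the members' mean CPM ran from 3.09 (Cks2) to 605 (Mki67), with a median of 56.9. Per kilobase of transcript, Top2a was highest at 83.9 CPM per kb and Cks2 lowest at 4.47 CPM per kb. Cks2, a small CDK-binding subunit, shares 29.7% of its 50-base stretches with other annotated genes, and reads that mapped to several places were not counted, so it may be undercounted. All 45 had counts in every neurosphere library.

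The 2 genes of chromosome structure were the most abundant. Mki67 (chromosome 7, 135689784 to 135716450, GRCm38.p6), which encodes the Ki-67 protein that coats mitotic chromosomes, was at 714, 583 and 518 CPM in wild-type neurospheres. It was at 242, 635 and 619 CPM in Bmal1-/- neurospheres, where the first library lay below all the others. Top2a, the topoisomerase that untangles sister chromatids, was at 491, 423 and 400 CPM in wild type, against 264, 466 and 487 CPM in Bmal1-/-. In the callosum Mki67 was at 1.65, 4.77 and 2.60 CPM in wild type, against 1.33 and 1.73 CPM in Bmal1-/-. Top2a was at 1.58, 5.43 and 1.85 CPM and at 1.96 and 1.93 CPM there. In both genes wild-type callosum 2 was the highest callosum library, and no callosum value came near a neurosphere value.

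**Figure D2:**
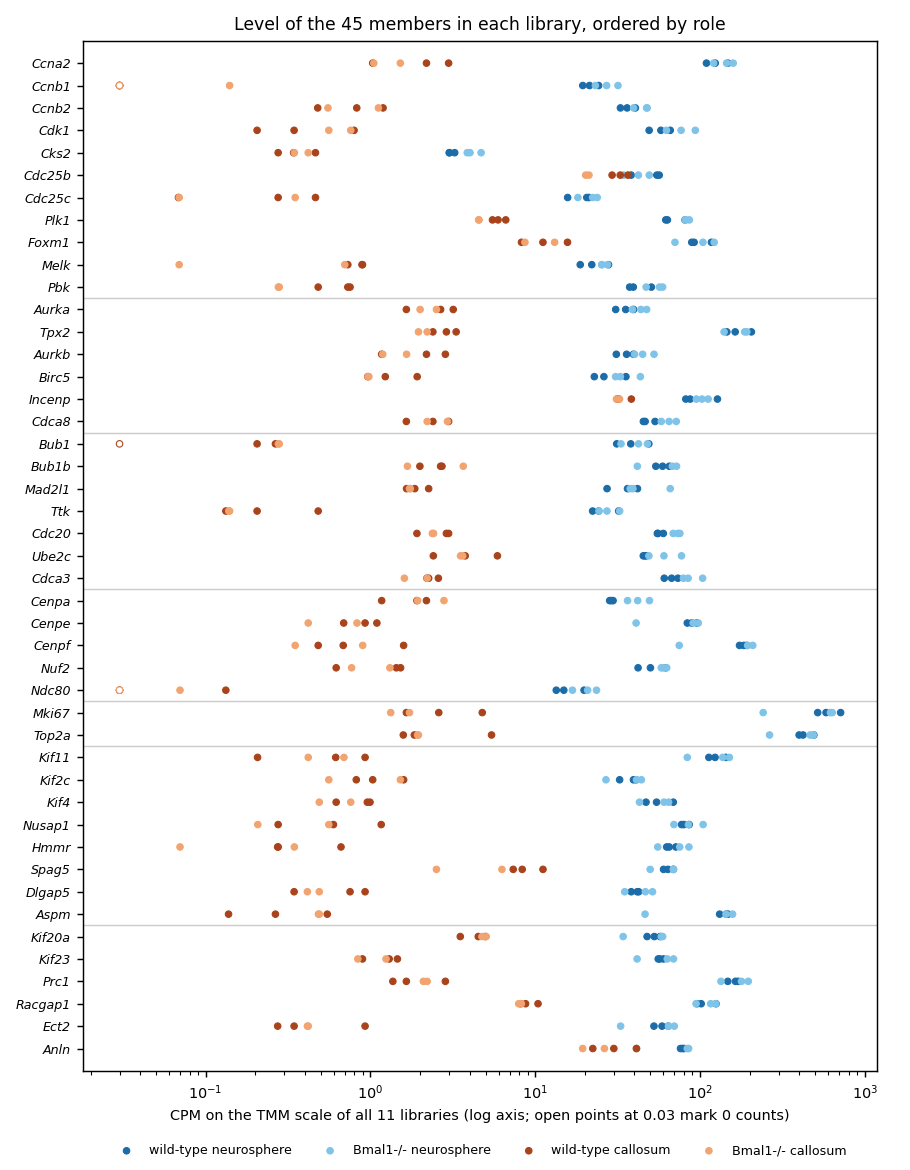
Level of each of the 45 members (rows, ordered by role and separated by grey lines) in each of the 11 libraries, in CPM on a log axis; open points at 0.03 mark 0 counts. Neurosphere libraries (blue) and callosum libraries (brown and orange) are far apart for most members, and they lie closest for Cdc25b, Incenp and Anln.

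The first comparison asked how mitotic transcripts differ between cultured progenitors and the adult tract, in wild type. All 45 members were lower in the callosum by the quasi-likelihood F test of edgeR (Benjamini-Hochberg adjusted p under 0.05, over all genes tested). Among the 14733 genes tested, 43.8% were called lower and 42.0% higher, so a call alone was common here. The members' median log2 fold change was -5.39, beside -0.06 over all genes tested. The other mitotic genes had a median of -4.32 (63 of 67 lower, 3 higher) and the S phase genes one of -2.83 (32 of 35 lower, 1 higher). Neurosphere and callosum libraries also differed in their shares of unmapped reads, so culture, tissue and library preparation cannot be told apart.

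Of the entry genes, Ccnb1 (chromosome 13, 100778739 to 100786486, GRCm38.p6), the gene for cyclin B1, had 0 counts in all 3 wild-type callosum libraries and 24.3, 21.4 and 19.4 CPM in wild-type neurospheres. With the group total set to a floor of 3 counts, it was at least 320-fold lower in the callosum. Part of it (23.4% of 50-base stretches) is shared with pseudogenes such as Ccnb1-ps, so it too may be undercounted in every library. Cdk1, the mitotic kinase itself, was at 66.0, 57.9 and 49.2 CPM in neurospheres and at 0.344, 0.795 and 0.205 CPM in the callosum (log2 fold change -6.93 ± 0.30 SE, edgeR adjusted p = 2.57e-08). Foxm1, the transcription factor that drives many of these genes, fell less, from 117, 92.2 and 89.2 CPM to 8.26, 15.7 and 11.1 CPM (-3.04 ± 0.22, adjusted p = 9.42e-07). The 11 entry genes had a median of -5.39.

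Cdc25b (chromosome 2, 131186436 to 131198511, GRCm38.p6), a phosphatase that removes inhibitory phosphates from CDK1, differed least of all members. It was at 38.2, 54.7 and 56.6 CPM in wild-type neurospheres and at 36.5, 29.3 and 32.8 CPM in the wild-type callosum. The 2 groups did not overlap, but the lowest neurosphere value and the highest callosum value were close (log2 fold change -0.55 ± 0.16 SE, edgeR adjusted p = 0.00991). Its relative Cdc25c was at 15.7 to 21.2 CPM in neurospheres and at 0.0684 to 0.464 CPM in the callosum (-6.06).

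The Aurora kinases and passenger proteins had a median of -4.17. Aurkb, the kinase of the passenger complex, was at 39.5, 35.9 and 31.1 CPM in neurospheres and at 1.17, 2.85 and 2.19 CPM in the callosum (-4.04 ± 0.26, adjusted p = 3.25e-07). Incenp (chromosome 19, 9872295 to 9899489, GRCm38.p6), the scaffold that holds this kinase, was at 128, 87.2 and 82.0 CPM in neurospheres and still at 38.3, 32.1 and 31.4 CPM in the callosum (-1.50 ± 0.18, adjusted p = 3.04e-05). Its partners in the complex kept far smaller shares of their neurosphere mean: 4.87% for Birc5 and 4.84% for Cdca8, against 34.3% for Incenp.

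Kinetochore genes had a median of -6.57, and Ndc80, which encodes the microtubule-binding subunit of the outer kinetochore, had 2 counts in all over the 3 wild-type callosum libraries. Its neurosphere level was 355-fold higher, with a 95% counting interval of 98.0 to 2935. Checkpoint and anaphase-promoting complex genes had a median of -4.54. Of these Bub1, a checkpoint kinase, was among the 4 lowest members (-7.86 ± 0.40, adjusted p = 7.75e-08), while Ube2c, the ubiquitin-conjugating enzyme of the complex, kept 8.68% of its neurosphere mean. Ube2c overlaps Tnnc2 on the opposite strand, which was at 0 to 0.206 CPM in callosum libraries.

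Of the spindle genes, Aspm (chromosome 1, 139454188 to 139494088, GRCm38.p6), needed at spindle poles and mutated in primary microcephaly, fell furthest. It was at 144, 148 and 132 CPM in wild-type neurospheres and at 0.138, 0.265 and 0.547 CPM in the callosum (-8.73 ± 0.24, adjusted p = 3.65e-09). Spag5 (chromosome 11, 78301470 to 78322457, GRCm38.p6), which encodes the spindle protein astrin, was at 68.9, 63.9 and 60.1 CPM and at 11.1, 7.35 and 8.34 CPM (-2.80 ± 0.16, adjusted p = 1.79e-07). Central spindle and cytokinesis genes had a median of -4.53. Anln (chromosome 9, 22331214 to 22389211, GRCm38.p6), the actin-binding scaffold of the contractile ring, was at 80.1, 78.3 and 76.2 CPM in neurospheres and at 22.4, 41.1 and 30.01 CPM in the callosum (-1.28 ± 0.19, adjusted p = 1.54e-04).

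In the wild-type callosum 6 members kept over 10% of their wild-type neurosphere mean: Cdc25b 66.0%, Anln 39.9%, Incenp 34.3%, Spag5 13.9%, Foxm1 11.8% and Cks2 11.7%. By contrast 12 members kept under 1%, and the median was 2.28%. Cdc25b, Incenp, Anln, Foxm1, Racgap1 and Spag5, chosen after their values were seen as the 6 with the highest callosum CPM, held 63.8% to 73.5% of all member CPM in the 5 callosum libraries, against 12.1% to 13.3% in the 6 neurosphere libraries. Per kilobase, Cdc25b (10.6 CPM per kb), Incenp (10.5) and Anln (6.77) led the wild-type callosum, where they ranked 29, 11 and 24 of 45 in wild-type neurospheres. The 18 myelin and oligodendrocyte genes summed to 24178, 36447 and 32604 CPM in wild-type callosum and to 27294 and 37612 CPM in Bmal1-/- callosum, and Anln was at 19.4 and 26.3 CPM in those last 2 libraries. Within each genotype the library lowest in the myelin genes was also lowest in Anln. This was not particular to Anln: that wild-type library, callosum 1, was the lowest of the 3 in 28 of 45 members. Cdc25b (36.5 CPM) and Incenp (38.3 CPM) went the other way and were highest there. The share of any cell type in these residual levels was not tested.

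**Figure D3:**
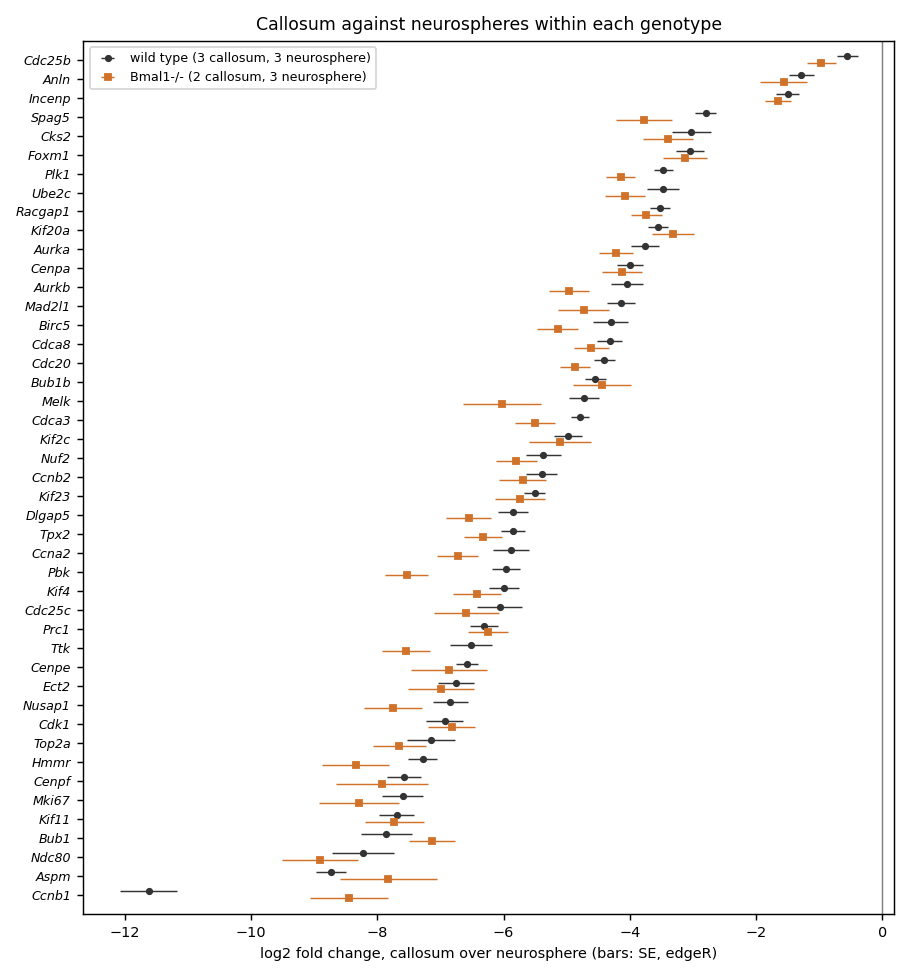
Log2 fold change of callosum over neurosphere (horizontal axis, bars are SE) for the 45 members (rows), in wild type (circles, 3 against 3 libraries) and in Bmal1-/- (squares, 2 against 3). All points lie below 0, from Cdc25b at the top (-0.55 in wild type) downwards; the wild-type value of Ccnb1 rests on 0 callosum counts and depends on the model's prior count.

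The same comparison within Bmal1-/- used no wild-type library. Again 45 of 45 members were called lower in the callosum, where 37.5% of the 14883 genes tested were called lower and 35.1% higher. The median was -5.80 (-0.08 over all genes tested), and the range ran from -8.91 ± 0.60 (SE, adjusted p = 3.81e-05) for Ndc80, with 1 count in 2 callosum libraries, to -0.97 ± 0.23 (adjusted p = 0.00791) for Cdc25b. Ccnb1 had 2 and 0 counts in Bmal1-/- callosum, and its neurosphere level was 394-fold higher with a counting interval of 109 to 3257. The next lowest values were those of Hmmr (-8.34), a spindle protein, and Mki67 (-8.29). At the other end stood Anln (-1.56), Incenp (-1.65) and Foxm1 (-3.13), so the members nearest to 0 included Cdc25b, Anln and Incenp in both genotypes. Top2a was at -7.65, Cdk1 at -6.82 and Aurkb at -4.96. Without Bmal1-/- neurosphere 1 the median was -5.94, with 45 of 45 called.

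Among the other mitotic genes, the lowest wild-type values were those of Cenpi, a centromere protein (-11.32), and Casc5, the kinetochore scaffold (-10.35), and the highest those of Fzr1, an activator of the anaphase-promoting complex (1.55), and Cit, the citron kinase of cytokinesis (2.25). Genes of the DREAM, MuvB, B-MYB and NF-Y complexes were mixed in the wild-type comparison, with 12 of 15 lower and 3 higher. Mybl1 was at -7.04, Mybl2, the gene for B-MYB, at -2.02, Lin9 at -4.01 and Rbl1 at -4.27. By contrast E2f4 (1.03) and Lin37 (1.86) were higher in the callosum. Of 11 inhibitors of mitotic entry and of CDKs, 6 were lower and 3 higher, among them Cdkn1a (p21; -5.07) and Rprm (reprimo; 3.90).

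The genotype comparison asked whether mitotic transcripts differ in Bmal1-/- neurospheres. No member passed: 0 of 45 were called, where 0% of the 13968 genes tested were called higher and 0.00716% lower. Of the members 31 lay above 0 and 14 below, with a median log2 fold change of 0.10 and a range from -0.29 to 0.56, beside a median of -0.01 over all genes. That balance depended on single libraries: without wild-type neurosphere 1, 38 lay above 0 (median 0.19), without wild-type neurosphere 3, 24 did (median 0.06), and without Bmal1-/- neurosphere 3, 22 did (median -0.01). With an offset for transcript length 40 of 45 lay above 0. At an unadjusted p under 0.05 there were 4 members, all higher (Cenpa, Cdca8, Cdc20 and Cdca3), against 3.02% of all genes. DESeq2 called 0 members as well.

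Cenpa (chromosome 5, 30666877 to 30674837, GRCm38.p6), the histone variant that marks centromeres, had the highest value. It was at 28.3, 29.7 and 29.0 CPM in wild type, against 49.4, 36.4 and 41.9 CPM in Bmal1-/- (log2 fold change 0.56 ± 0.17 SE, edgeR adjusted p = 0.798). For this gene all Bmal1-/- values lay above all wild-type values. Mad2l1, a checkpoint protein, followed at 0.44 ± 0.27 with 41.8, 36.3 and 27.3 CPM in wild type and 66.0, 39.2 and 37.7 CPM in Bmal1-/-, where only the first Bmal1-/- library lay above all wild-type ones. Cks2 (0.44) and Cdk1 (0.43) came next. Cdk1 was at 93.7, 62.6 and 76.8 CPM in Bmal1-/-, and its wild-type range reached 66.0 CPM.

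At the low end stood Aspm (-0.29 ± 0.40), Mki67 (-0.28 ± 0.35), Cdc25b (-0.25 ± 0.21) and Cenpe (-0.23 ± 0.30), each with an edgeR adjusted p of 0.798 or more. In Aspm, Bmal1-/- neurospheres were at 46.4, 144 and 158 CPM, so the first library alone was below the wild-type range of 132 to 148 CPM. Top2a (-0.11), Foxm1 (-0.01), Aurkb (0.37) and Ccnb1 (0.34) lay between. Ccnb1 was at 31.8, 23.2 and 27.1 CPM in Bmal1-/-, and the second of these was within the wild-type range.

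In 8 of 45 members (17.8%) all 3 Bmal1-/- libraries lay above all 3 wild-type ones, against 6.37% of all genes tested: Aurkb, Cdc20, Cdca3, Cdca8, Cenpa, Cks2, Plk1 and Ube2c. In 0 members did they all lie below, against 5.52% of all genes. Cdc20 (chromosome 4, 118432901 to 118437343, GRCm38.p6), the activator of the anaphase-promoting complex, was at 59.9, 55.1 and 55.7 CPM in wild type, against 68.8, 73.4 and 75.5 CPM in Bmal1-/- (0.35 ± 0.14, adjusted p = 0.798). An exon of Cdc20 overlaps Elovl1 on the opposite strand. Elovl1 was at 30.7, 27.0 and 29.2 CPM in wild type, against 56.7, 32.3 and 32.1 CPM in Bmal1-/-, so it did not overlap between the genotypes either. By role, 7 of 7 checkpoint and anaphase-promoting complex genes and 6 of 6 Aurora and passenger genes lay above 0, and 3 of 8 spindle genes and 0 of 2 chromosome structure genes did.

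These differences moved with transcript length and with the library Bmal1-/- neurosphere 1. Across the 45 members, Spearman's rho between log2 fold change and annotated transcript length was -0.75 (-0.60 over 13487 genes), and with coding length it was -0.89. The genes share the same 6 libraries, so this is a description. The 12 members with transcripts under 2000 bases all lay above 0 (median 0.37), and of the 10 over 4500 bases 1 did (median -0.13). That 1 was Mad2l1, whose annotated transcript of 7557 bases holds only 615 coding bases. Relative to the mean of the other 2 Bmal1-/- libraries, library 1 held 0.308 of their level for Aspm, 0.371 for Cenpf (a large kinetochore protein), 0.386 for Mki67 and 0.434 for Cenpe (a kinetochore motor). These 4 transcripts are 7910 to 11130 bases long. It held 1.41 times their level for Ube2c (967 bases), 1.37 times for Birc5 (survivin; 947 bases) and 1.72 times for Mad2l1.

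**Figure D4:**
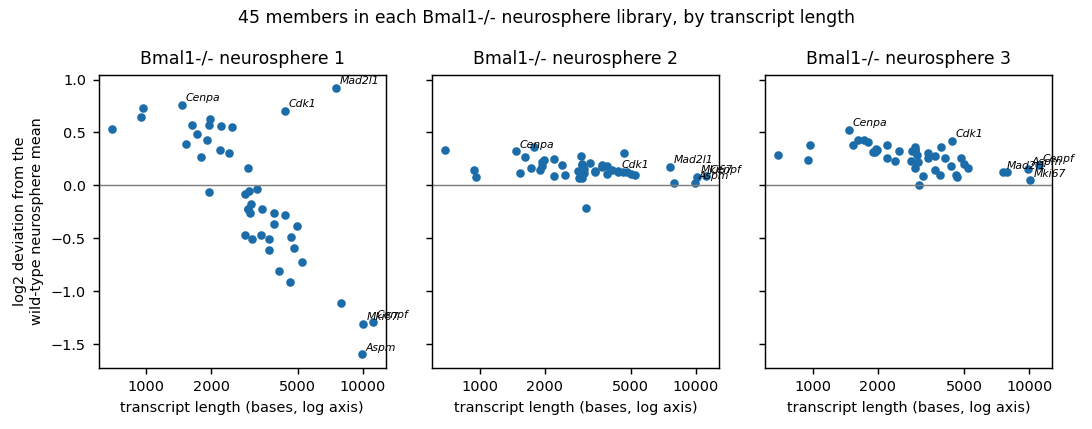
Log2 deviation of each member from the wild-type neurosphere mean (vertical axis, after adding 0.5 CPM) against annotated transcript length in bases (log axis), in the 3 Bmal1-/- neurosphere libraries. In library 1 members fall with length from above 0 to -1.60 for Aspm, with Cdk1 and Mad2l1 apart from the rest, while 44 and 45 of 45 members lie above 0 in libraries 2 and 3.

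Without library 1 the members lay closer together and mostly above wild type. Then 44 of 45 had a log2 fold change above 0, with a median of 0.19 and a range from -0.13 (Cdc25b) to 0.43 (Cenpa), beside a median of -0.01 over all genes. No member was called (0.0213% of 14094 genes were called higher and 0.0142% lower), and 6 had an unadjusted p under 0.05, all higher, against 3.88% of all genes. The lowest edgeR adjusted p of a member was that of Cdc20 (0.38 ± 0.10, higher in 2 of 2 libraries, adjusted p = 0.900). Mki67 was then at 0.05 ± 0.15 and Aspm at 0.09 ± 0.10, both above 0 where they had been below. In 16 of 45 members (35.6%) both Bmal1-/- libraries lay above all wild-type ones, against 9.90% of all genes, and in 0 below, against 8.51%. These 16 included cytokinesis genes (Anln, Kif20a, Kif23 and Prc1) and kinetochore and checkpoint genes (Cenpa, Cenpf and Bub1b). Spearman's rho with transcript length stayed at -0.70 across members and was -0.18 over all genes.

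The wild-type libraries differed among themselves too. Wild-type neurosphere 1 was the highest of the 3 in 38 of 45 members and wild-type neurosphere 3 the lowest in 39. Their medians over the members deviated from the wild-type mean by 0.14 and -0.14 on the log2 scale, while libraries 2 and 3 of Bmal1-/- deviated by 0.14 and 0.26. Wild-type 1 and Bmal1-/- 2 thus lay equally far above the wild-type mean. Of the S phase genes, wild-type 1 was highest in 35 of 35, with a median deviation of 0.69, and wild-type 3 was lowest in 30. Bmal1-/- 1 was highest in 22 of 35 and Bmal1-/- 3 lowest in 27, so both genotypes ran down from library 1 to library 3. In the members the Bmal1-/- order was another: Bmal1-/- 3 was highest in 22 of 45 members, but in 0 of 35 S phase genes. Over the genotype comparison the S phase genes had a median of 0.21 (29 of 35 above 0) with Bmal1-/- neurosphere 1 and of -0.02 (16 of 35) without it. The other mitotic genes had medians of 0.08 (40 of 67) and 0.12 (56 of 67). Among them Cit (-0.51) and Casc5 (-0.37) were lowest and Cenpw (0.65) and Pttg1 (securin; 0.62) highest, and 0 of 67 were called.

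The second genotype comparison was made in the callosum, where 34 of the 45 members passed the filter on low counts. The 11 that did not were Ccnb1, Cks2, Cdc25c, Bub1, Ttk, Ndc80, Kif11, Nusap1, Hmmr, Aspm and Ect2. Each had between 0 and 30 counts over the 3 wild-type libraries and between 1 and 16 over the 2 Bmal1-/- libraries, too few to show a difference of moderate size. Of the 34 tested, 0 were called (background 0.521% of 14198 genes called higher and 0.387% lower). In all 27 lay below 0 and 7 above, with a median of -0.25 beside -0.01 over all genes tested. At an unadjusted p under 0.05 there were 2, Cdc25b and Spag5, both lower in Bmal1-/-, where 13.9% of all genes tested had such a p.

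Cdc25b is described because of these values. It was at 36.5, 29.3 and 32.8 CPM in wild type, against 20.3 and 21.2 CPM in Bmal1-/-. The groups did not overlap (log2 fold change -0.65 ± 0.13 SE, edgeR adjusted p = 0.0696). DESeq2 called it (adjusted p = 0.0113), as did edgeR without the filter on low counts (adjusted p = 0.0355), and over all the alternatives run its adjusted p ranged from 0.0113 to 0.504. An exon of Cdc25b overlaps Spef1 on the opposite strand, which was at 15.4 to 17.2 CPM in wild-type callosum, against 14.04 and 14.02 CPM in Bmal1-/-. Spag5 was at 11.1, 7.35 and 8.34 CPM in wild type, against 2.51 and 6.28 CPM in Bmal1-/- (-1.01 ± 0.36, adjusted p = 0.274). It was called only when Bmal1-/- callosum 2 was left out, at -1.80 with an adjusted p of 0.0473.

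The lowest values were those of Pbk, a mitotic kinase (-1.20 ± 0.56, adjusted p = 0.379), and Melk, another (-1.10 ± 0.68, adjusted p = 0.488). Pbk was at 0.482, 0.729 and 0.752 CPM in wild type, against 0.279 and 0.276 CPM in Bmal1-/-, a few counts per library. It had 7, 11 and 11 counts in wild type against 4 and 4 in Bmal1-/-, and Melk had 13, 11 and 13 against 10 and 1. Both passed the filter on low counts through their wild-type counts, as did Dlgap5 (5, 14 and 11 against 7 and 6). Cenpe (10, 14 and 16 against 6 and 12), Cenpf (7, 24 and 10 against 5 and 13) and Kif4 (9, 15 and 14 against 7 and 11) also passed through wild type. So did Ccnb2 (12, 18 and 7 against 16 and 8) and Kif2c (15, 24 and 12 against 8 and 22). In each of these, as in Melk, only 1 Bmal1-/- library reached the level of the filter. For all such members a value below 0 was favoured in advance, and they are among the tested members counted around 0 above and below. Mki67 followed Spag5 at -0.97 ± 0.46 (adjusted p = 0.388). The highest were Cdk1 (0.55 ± 0.61), Cenpa (0.44 ± 0.35), Kif20a (0.19) and Prc1 (0.15), and Top2a (-0.60), Aurkb (-0.53) and Foxm1 (-0.09) lay between. Kif20a shares exons with Cdc23 on the opposite strand (25.2% of its 50-base stretches), and Cdc23 was at 30.7 to 36.7 CPM in callosum libraries. Ambiguous reads were counted for no gene, so the Kif20a level of 3.51 to 5.04 CPM may lack reads from the shared exons. If the annotation behind the counts leaves that overlap out, the level may instead include reads of Cdc23.

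Both Bmal1-/- libraries lay below all wild-type ones in 6 of 34 members (17.6%; Cdc25b, Melk, Pbk, Plk1, Spag5 and Tpx2), against 18.7% of all genes tested, a share near the background. Of these, Melk and Pbk had passed the filter through their wild-type counts. Both Bmal1-/- libraries lay above in 0 members, against 13.7% of all genes. By role, 0 of 2 chromosome structure genes, 0 of 4 spindle genes, 2 of 8 entry genes, 1 of 6 Aurora and passenger genes, 1 of 5 checkpoint genes, 1 of 4 kinetochore genes and 2 of 5 cytokinesis genes lay above 0. Of the other mitotic genes 40 were tested, with a median of -0.08, from Plk4 (-0.67) and Hjurp (-0.62) to Smc4 (0.60) and Sapcd2 (0.68), and 0 were called. Of the inhibitors, Cdkn1a was called higher (1.07, adjusted p = 0.0245), the only call among 11.

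**Figure D5:**
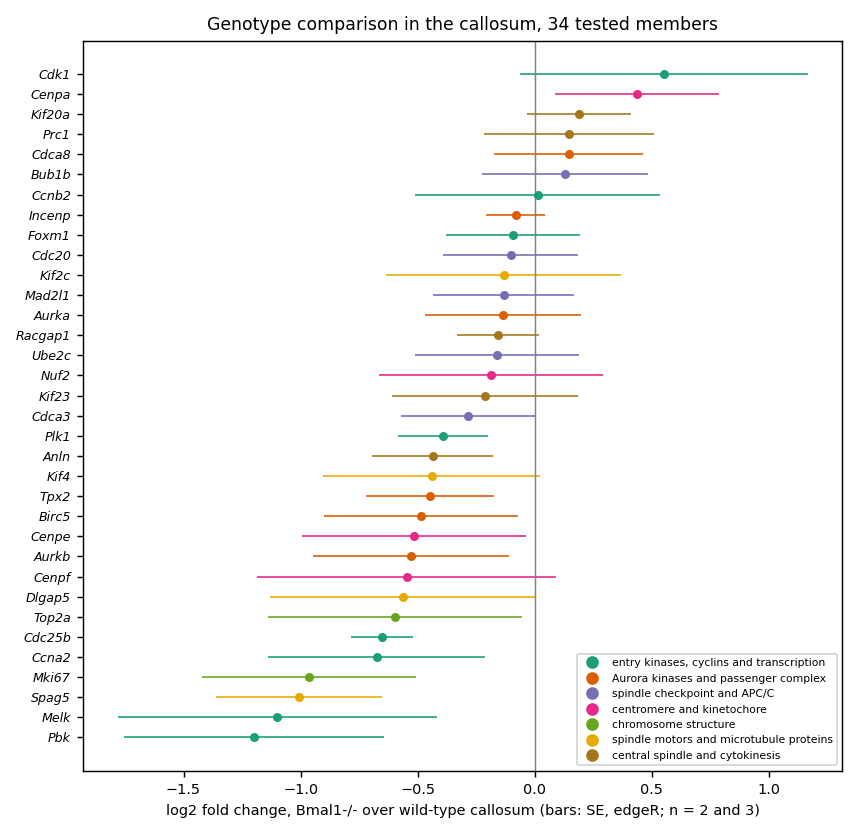
Log2 fold change of Bmal1-/- over wild-type callosum (horizontal axis, bars are SE, n = 2 and 3) for the 34 tested members (rows), coloured by role. 27 lie below 0, from Pbk at -1.20 up, and the bars of most members reach over 0 or nearly so.

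The balance of callosal values around 0 turned on wild-type callosum 2, the highest of the 3 wild-type libraries in 34 of 45 members. For Cdc25b (29.3 CPM) and Spag5 (7.35 CPM) it was the lowest of the 3, so their lower Bmal1-/- values did not rest on it. Without it 17 of 31 tested members lay below 0 and 14 above, with a median of -0.05. Summed over the 45 members, wild-type callosum held 171, 213 and 179 CPM and Bmal1-/- callosum 141 and 159 CPM. Over the 39 members other than the 6 most abundant, these sums were 45.3, 77.2 and 57.2 CPM against 49.0 and 53.1 CPM, so the groups overlapped and library 2 stood highest. The same library was the highest for 12 genes of striatal neurons, which summed to 1644, 4583 and 2651 CPM in wild type and 1349 and 1712 CPM in Bmal1-/-. All 12 had a log2 fold change below 0 (median -1.28, 0 called), and no gene of the list was at 0 in any callosum library. Genes of ependymal and choroid plexus cells summed to 99.8, 178 and 340 CPM and to 116 and 133 CPM, with 9 of 9 tested below 0 (median -0.90, 0 called). Those of neuroblasts summed to 934, 843 and 872 CPM against 1018 and 868 CPM, and those of neural stem and progenitor cells to 598, 741 and 661 CPM against 678 and 894 CPM. Of the 18 progenitor genes 2 were called higher in Bmal1-/-, Sox3 (3.02, adjusted p = 4.91e-05) and Fabp7 (3.27, adjusted p = 0.00512), and of 13 astrocyte genes Gfap was called higher (2.19, adjusted p = 1.94e-04) and Aldh1l1 lower (-0.55, adjusted p = 0.0491). The part of dissection or of any cell type in the members' values was not tested.

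The interaction asked whether the genotype difference itself differed between callosum and neurospheres, in 1 model of all 11 libraries. No member passed: 0 of 45 were called, where 0.0131% of 15322 genes were called higher and 0% lower. In all 38 members lay below 0, that is, were lower in Bmal1-/- callosum relative to wild type than in neurospheres, with a median of -0.43 beside -0.04 over all genes. At an unadjusted p under 0.05 there were 5, all below 0, against 4.28% of all genes, and DESeq2 called 0 members. The lowest were Pbk (-1.58 ± 0.45, edgeR adjusted p = 0.790), Melk (-1.31), Hmmr (-1.06) and Ttk (-1.03), and the highest Ccnb1 (3.20 ± 1.58), Aspm (0.90), Bub1 (0.72) and Kif20a (0.23), all with an adjusted p of 0.790 or more. The value of Ccnb1 rests on 2 callosum counts in all, both in 1 library. The 11 members that failed the filter in the callosum are among the 45 here, through their neurosphere counts. Of the members just named these include Ccnb1, Hmmr, Ttk, Aspm and Bub1. Wild-type and Bmal1-/- callosum held 18 and 6 counts of Hmmr, 12 and 4 of Ttk, 14 and 14 of Aspm, and 7 and 8 of Bub1. Aurkb was at -0.92, Mki67 at -0.70, Top2a at -0.50, Foxm1 at -0.10 and Cdk1 at 0.11. Without wild-type callosum 2 the median was -0.20, with 28 members below 0 and 17 above, and without Bmal1-/- neurosphere 1 it was -0.49, with 39 below.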

How the data were processed

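The authors deposited raw read counts per gene for each of 11 libraries, with 4 leading rows of unassigned reads, and reads were aligned to mm10 with STAR 2.7.1a, per the submitters' processing notes. Counts that ignored strand (column 2) were used, since 49.6% to 50.8% of stranded counts lay on the first strand. Reads where genes on opposite strands overlap could therefore not be assigned by strand. Multimapping reads were listed at 0. For the annotation behind the counts, the sources used here give no name. Unassigned rows stayed out of library sizes: unmapped reads were 7.77% to 22.6%, reads outside genes 8.55% to 16.6% and ambiguous reads 0.772% to 1.40%. Libraries were grouped by title.

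The main test was edgeR 4.0.16 in R 4.3.3 (TMM, filterByExpr, robust quasi-likelihood F test, two-sided, Benjamini-Hochberg over all genes tested). A gene was called at an adjusted p under 0.05. SE is the size of the log2 fold change over the square root of F. Each comparison was fitted on its own libraries, and the interaction on all 11. CPM values use TMM factors of all 11 libraries. A gene with 0 counts may lie at up to 3 counts (0.133 to 0.210 CPM), and such floors and intervals cover counting error only. Transcript and coding lengths came from GENCODE M21 (principal transcript), promoters from RefSeq (GRCm38.p6). Shared sequence is the share of 50-base stretches found in another GENCODE M21 gene. The alternatives were RLE scaling, no filter, DESeq2 1.42.0, a replicate block, a length offset, a model of all 11 libraries and leaving out each library. The scripts were tested on simulated data.

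The members and all gene lists were chosen with earlier results of these data known. The striatal list was added last. Named in each comparison were Mki67, Top2a, Ccnb1, Cdk1, Aurkb and Foxm1 where tested, the 4 members with the highest and the 4 with the lowest log2 fold change, and any called member of a genotype comparison. Members that were highest or lowest in a group, and the 2 highest and 2 lowest other mitotic genes, were named too. The remaining members were named by role or for a feature seen in their values.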

Additional observations from a re-analysis of the deposited data

How the results depend on the processing

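Settings were changed 1 at a time, and values below are log2 fold changes. The count of called members was 0 in both genotype comparisons and the interaction under every setting run, apart from 1 called lower in the callosum without a filter on low counts and with DESeq2 (Cdc25b in both) and 1 (Spag5) without Bmal1-/- callosum 2. All 45 stayed called lower between wild-type sources, and 43 to 45 between Bmal1-/- sources, where 1 callosum library was then left. In the callosum DESeq2 gave no adjusted p for 8 of the 34 members tested, so these could not be called by it. With the replicate block 0 members were called in either genotype comparison, the median was 0.10 in neurospheres and -0.34 in the callosum, and Prc1 turned to -0.022 in the callosum. The block changed no call of a member. Whether shared numbers mark pairs was not settled. In neurospheres the same-numbered deviations correlated at 0.27, -0.0036 and 0.28. Libraries 1 and 3 of each genotype correlated best with their own number, and library 2 of each did not. With the block, 5.22% of all genes tested in neurospheres had an unadjusted edgeR p under 0.05, against 3.02% without it. With a length offset Mki67 (0.032), Top2a (0.056), Foxm1 (0.12) and Cenpe (0.039) turned above 0 in neurospheres and Cdk1 (-0.020) below 0 in the interaction. Cdk1 has an annotated transcript of 4375 bases with 891 coding bases, so the offset may overcorrect it, as it may Mad2l1.

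Leaving out each library in turn, the members' median ranged from -0.46 to -0.055 in the callosum, from -5.65 to -5.33 between wild-type sources, from -6.13 to -5.85 between Bmal1-/- sources and from -0.49 to -0.20 in the interaction. In the callosum 0 to 1 members were called lower. Near 0, signs turned. In neurospheres Mki67 ranged from -0.49 to 0.046, Top2a from -0.25 to 0.12, Foxm1 from -0.19 to 0.18, Aspm from -0.57 to 0.087 and Cenpe from -0.43 to 0.070, each highest without Bmal1-/- neurosphere 1. The neurosphere median was -0.01 without Bmal1-/- neurosphere 3, with 22 members above 0. In the callosum Top2a ranged from -0.89 to 0.20, Foxm1 from -0.41 to 0.19 and Prc1 from -0.057 to 0.53. In the interaction Top2a ranged from -0.80 to 0.29, Ccnb1 from -0.34 to 4.17, Cdk1 from -0.23 to 0.81 and Foxm1 from -0.43 to 0.18. With a lone callosum library its spread was assumed to be that of the other group. Callosum depth left 11 members under the filter on low counts.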
